A study of Arabidopsis thaliana with 21 samples.

Results

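The genes described here stood lower in both ada2a and spc plants than in wild-type Arabidopsis, while their means in gcn5 and ada2b-c plants were near or above those of the wild type. Let L be log2(genotype mean + 1) minus log2(Col-0 mean + 1). Genes were kept with a Col-0 mean of at least 30, with L at most -1 in ada2a and in spc and at least -0.5 in gcn5 and in ada2b-c. Of 32548 genes measured, 927 met these limits, and the 150 with the most negative weaker value of L in ada2a and spc were taken as members. The members were thus chosen by their measured means in ada2a, spc, gcn5, ada2b-c and Col-0, and those values are given as a description.

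RNA was sequenced from 30-day-old plants, grown on plates for 12 days and then in soil, with 3 libraries for each of 7 genotypes. The mutants were ada2a, spc, ada2b-cada2a, ada2b-cspc, gcn5 and ada2b-c, of which ada2b-cada2a and ada2b-cspc are double mutants, and the wild type was Col-0, the standard laboratory strain. All groups shared age, light and temperature, and the sources used here do not say what kind of mutation each line carries. The labels are silent on whether the 3 libraries of a group were drawn from different plants, so a p-value here speaks of the scatter among these libraries alone, and part of that scatter may be technical. The deposited values are an adjusted signal, and read depth is unknown.

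GCN5 is a histone acetyltransferase that works in multi-subunit complexes at gene promoters. ADA2B and ADA2A are alternative adaptor proteins: ADA2B belongs to the conserved SAGA complex, and ADA2A belongs together with SPC to a complex known from plants, called PAGA. ada2a and spc thus affect subunits of one complex, gcn5 affects the shared enzyme, and ada2b-c affects the other adaptor.

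Promoters of the first 4 members by rank, and of bHLH38, which was added after its values were seen, are shown because these genes recur in the results. Each is the 250 bases before the annotated start, 5′ to 3′ on the gene's strand, from the RefSeq TAIR10.1 genome. Capitals mark matches, on either strand, to 9 motifs: TATAAA (the core promoter element), CACGTG (G-box), TTGACC (W-box), AAAATATC (evening element core), AAACCCTA (telobox), TGGGCC (site II), GAGAGAGA (GAGA repeat), CCGAC (CRT core) and TGTCTC (auxin element). No motif contains another.
AT5G11330, chr5:3618914-3619163, minus strand: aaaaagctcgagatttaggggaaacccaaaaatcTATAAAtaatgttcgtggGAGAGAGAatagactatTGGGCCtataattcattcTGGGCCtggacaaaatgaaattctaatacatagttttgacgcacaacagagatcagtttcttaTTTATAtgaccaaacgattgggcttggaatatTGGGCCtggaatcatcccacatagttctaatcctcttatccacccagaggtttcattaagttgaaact
PPR40, chr3:5770489-5770738, minus strand: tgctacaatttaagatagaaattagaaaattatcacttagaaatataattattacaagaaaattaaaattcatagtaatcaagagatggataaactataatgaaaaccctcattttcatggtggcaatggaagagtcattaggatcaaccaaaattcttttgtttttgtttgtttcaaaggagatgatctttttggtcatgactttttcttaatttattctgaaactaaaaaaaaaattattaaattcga
AT4G31270, chr4:15184962-15185211, minus strand: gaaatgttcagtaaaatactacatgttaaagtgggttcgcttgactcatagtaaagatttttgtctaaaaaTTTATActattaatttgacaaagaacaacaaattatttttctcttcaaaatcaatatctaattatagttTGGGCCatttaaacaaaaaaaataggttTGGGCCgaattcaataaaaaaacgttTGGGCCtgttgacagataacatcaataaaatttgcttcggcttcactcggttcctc
AT1G23180, chr1:8215471-8215720, plus strand: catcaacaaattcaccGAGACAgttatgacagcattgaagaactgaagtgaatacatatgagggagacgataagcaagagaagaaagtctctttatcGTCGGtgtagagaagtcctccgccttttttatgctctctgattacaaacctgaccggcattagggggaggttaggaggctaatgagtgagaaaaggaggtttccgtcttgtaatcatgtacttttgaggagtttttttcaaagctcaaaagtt
bHLH38, chr3:21085246-21085495, minus strand: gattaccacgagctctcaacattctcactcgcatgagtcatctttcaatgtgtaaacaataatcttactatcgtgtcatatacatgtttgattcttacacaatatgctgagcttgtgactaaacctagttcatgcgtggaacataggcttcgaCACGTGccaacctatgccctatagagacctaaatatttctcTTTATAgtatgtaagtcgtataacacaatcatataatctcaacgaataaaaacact

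TGGGCC stood 3 times in the stretches of both AT5G11330 and AT4G31270, and none of the 9 motifs stood in that of PPR40. In the window from 250 bases before to 50 after the start, TGGGCC was present in 45 of 150 members (30.0%), against 21.9% of 9367 protein-coding genes that met the other limits of the rule and 15.5% of all 27443 protein-coding genes. TATAAA was present in 42.7% of members, against 49.8% and 52.1% of those sets. CCGAC was present in 20.7% of members, against 16.6% and 15.0%. Among the 31 members with PPR or TPR-like repeats described below, 12 (38.7%) held CCGAC, against 20.3% of all 547 protein-coding genes of that kind. Other motifs were less frequent in the 31 than in the 547: TATAAA stood in 25.8% against 39.9%, TGTCTC in 3.23% against 13.0%, and GAGAGAGA in 0 of 31 against 9.87%. These shares describe letters in a window, not binding sites.

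All 150 members lay between -2.58 and -1.39 in ada2a (median L -1.58) and between -3.40 and -1.39 in spc (median L -1.66). In ada2b-c the members stood high, with a median L of 1.37. There, 104 of the 150 had L of at least 1, and 5 had L below 0: AT5G11330, APR3, EMB506, BAM2 and AT1G36280. In gcn5 the median L was -0.08, with 125 members within 0.5 of 0. The genes that met the Col-0, gcn5 and ada2b-c limits, whatever their values in ada2a and spc, are called eligible genes; there were 9455, with median L of -0.38 in ada2a, -0.51 in spc and 0.96 in ada2b-c.

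**Figure D1:**
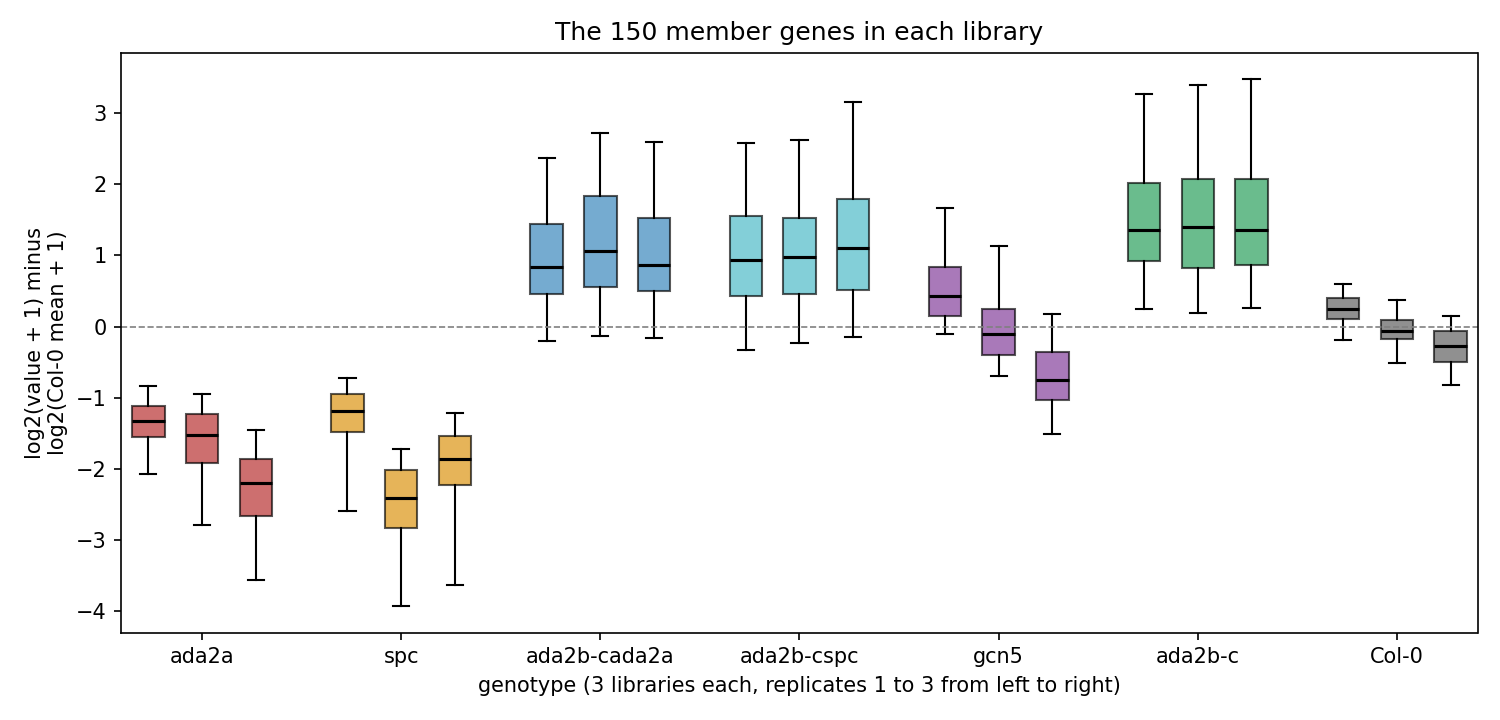
Level of the 150 members in each library, as log2(value + 1) minus log2(Col-0 mean + 1); boxes show quartiles and the median, whiskers the 5th and 95th percentiles, and each genotype has its replicates 1 to 3 from left to right. Medians run from -2.40 to -1.18 in the ada2a and spc libraries, from 0.84 to 1.40 in ada2b-c and the double mutants, and from -0.75 to 0.43 in gcn5.

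Member levels also differed between libraries of one genotype. The median member stood at -1.32, -1.52 and -2.20 in the 3 ada2a libraries and at -1.18, -2.40 and -1.86 in the 3 spc libraries, against 0.25, -0.06 and -0.27 in the 3 Col-0 libraries. In gcn5 the medians were 0.43, -0.10 and -0.75, and in replicate 3 as many as 42 members stood at or below -1. The condition that members are not lower in gcn5 thus rests on a mean over unlike libraries: without gcn5 replicate 1, 92 of the 150 still met the rule. All 3 ada2a libraries lay below all 3 Col-0 libraries for 144 members (23.8% of all genes tested) and above them for 0 (25.4%). All 3 spc libraries lay below Col-0 for 147 members (26.5%) and above it for 0 (25.2%). Between spc and ada2a, 143 of the 150 overlapped, 7 were lower in every spc library (6.45%) and 0 were higher (6.18%). In gcn5, 6 members lay above Col-0 in every library (17.4%) and 1 below (24.4%). In ada2b-c, 135 lay above (37.2%) and 1 below (40.6%). All these counts rest on values that the rule used, and its lower limits in gcn5 and ada2b-c held down the numbers below Col-0 there.

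Transcript length moved with these levels. Each slope below was taken on a gene's log2 level minus that gene's own mean over all 21 libraries. A slope is thus neither an absolute dependence on length nor a change from Col-0. Across genes, the change of log2 level per doubling of length was -1.0 ± 0.25 in ada2a, -1.11 ± 0.37 in spc, 0.79 ± 0.13 in ada2b-cada2a, 0.86 ± 0.08 in ada2b-cspc, -0.15 ± 0.44 in gcn5, 1.01 ± 0.05 in ada2b-c and -0.40 ± 0.21 in Col-0 (SD, n = 3 each). The steepest negative slopes, -1.28 in ada2a replicate 3 and -1.49 in spc replicate 2, were in the libraries with the lowest members, and gcn5 replicate 3 (-0.64) had the lowest slope and the lowest members of its genotype. Members were longer than other genes: their median transcript was 2422 bp, against 2061 bp for eligible genes and 1620 bp for all genes tested, and none was under 1000 bp. After a correction for length and GC content in each library, every member was still below Col-0 in both ada2a and spc, 94 stood at or below -1 in both, and 77 met every limit of the rule. The corrected medians of the members were -1.22 in ada2a and -1.23 in spc, against -0.10 and -0.11 for eligible genes. In ada2b-c the corrected median of the members was 0.62, against 0.66 for eligible genes, and 56 members had a corrected L of at least 1.

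**Figure D2:**
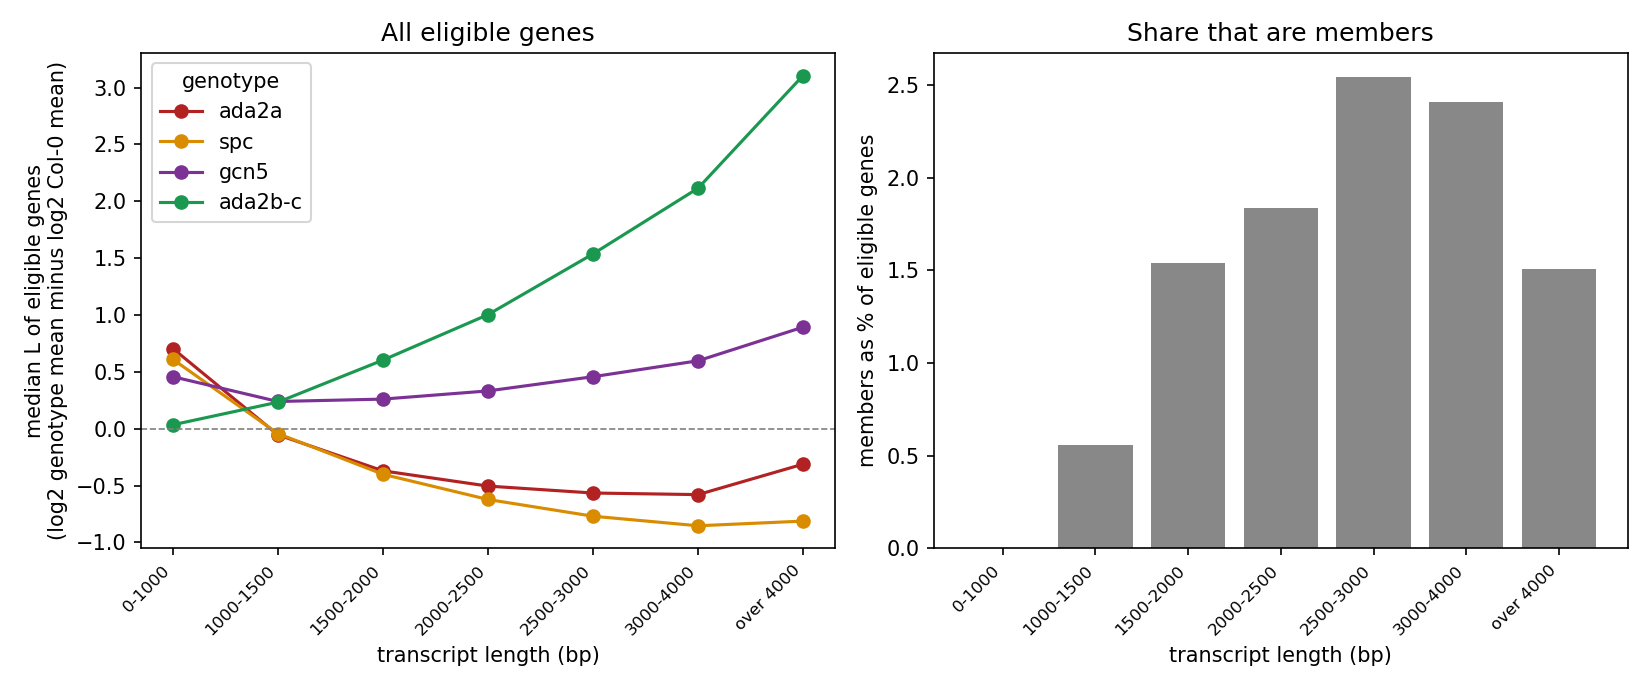
Left, median L of all 9455 eligible genes by transcript length in bp, for ada2a, spc, gcn5 and ada2b-c; right, members as a percentage of eligible genes in the same length classes. The median in ada2b-c climbs to 3.11 above 4000 bp, those in ada2a and spc are above 0 only under 1000 bp, and the share of members peaks at 2.55% between 2500 and 3000 bp.

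AT5G11330, an FAD/NAD(P)-binding oxidoreductase of the RefSeq annotation on chromosome 5 (3617138 to 3618913), ranked first and had the lowest value relative to Col-0 in the double mutants as well. Its values were 429.6, 268 and 552 in ada2a and 336, 509 and 322 in spc, 606, 299 and 554 in ada2b-cada2a and 556, 698 and 959 in ada2b-cspc, 2179, 1782 and 1757 in gcn5 and 2105, 1935 and 2073 in ada2b-c, against 2462, 2140.1 and 2281 in Col-0. All 12 libraries that carry ada2a or spc lay below all 9 others. Among the members it was the only one that passed as lower in both double mutants against ada2b-c and against Col-0. Relative to ada2b-c it fell by 2.13 ± 0.28 on the log2 scale in ada2b-cada2a (limma, adjusted p = 2.58e-05), and by 1.5 ± 0.28 in ada2b-cspc (adjusted p = 0.00126). Here and below, the ± of a change fitted in limma is its standard error.

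The other leading members were low in ada2a and spc and not in the double mutants. PPR40, a mitochondrial pentatricopeptide repeat protein, had 16.1, 19.4 and 7.16 in ada2a and 10.4, 3.89 and 8.23 in spc, 181, 215 and 222 in ada2b-cada2a and 196, 144 and 179.9 in ada2b-cspc, 96.2, 60.7 and 42.3 in gcn5 and 241, 229 and 219 in ada2b-c, against 86.4, 108 and 35.8 in Col-0. Every ada2a and spc library lay below every other library, and the double mutants and ada2b-c lay above Col-0. AT4G31270, described as a sequence-specific DNA-binding transcription factor, had 45.3, 17.7 and 12.2 in ada2a and 36.7, 13.7 and 6.34 in spc, 232, 228 and 283 in ada2b-cada2a and 228, 249 and 280.4 in ada2b-cspc, 96.8, 101 and 43.4 in gcn5 and 339.8, 394 and 363 in ada2b-c, against 129, 101 and 71.1 in Col-0. One ada2a library overlapped the lowest gcn5 library, and no ada2a or spc library reached Col-0.

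AT1G23180, an ARM repeat protein, had 242, 220.1 and 91.4 in ada2a and 269.8, 78.4 and 168 in spc, 743, 911 and 778 in ada2b-cada2a and 814, 713 and 738 in ada2b-cspc, 763, 519.7 and 249.7 in gcn5 and 1334, 1267 and 1246 in ada2b-c, against 887, 716 and 539 in Col-0. Its lowest gcn5 library fell within the spc range, and the double mutants overlapped Col-0. The uncharacterized AT2G43250 had 106, 69.3 and 16.1 in ada2a and 74.3, 26.1 and 71.2 in spc, 358, 478 and 449.9 in ada2b-cada2a and 376, 369 and 379 in ada2b-cspc, 399, 168 and 116 in gcn5 and 532, 525 and 439.6 in ada2b-c, against 231, 263 and 243 in Col-0. The gcn5 mean of this gene came from 1 high library and 2 below Col-0.

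PLDBETA2, a phospholipase D that releases phosphatidic acid from membrane lipids, had 25.4, 9.76 and 4.17 in ada2a and 12.6, 3.98 and 8.32 in spc, 242, 249 and 232 in ada2b-cada2a and 232, 248 and 336 in ada2b-cspc, 206, 146 and 59.6 in gcn5 and 733, 610.2 and 638 in ada2b-c, against 53.4, 63.2 and 40.02 in Col-0. The ada2a and spc libraries were below Col-0, the double mutants above it, and the ada2b-c libraries highest. LACS7, which activates fatty acids in peroxisomes, had 164, 87.5 and 129 in ada2a and 57.3, 66.7 and 74.2 in spc, 1641, 1759.6 and 1738 in ada2b-cada2a and 1934, 1903 and 2057 in ada2b-cspc, 869, 594 and 502 in gcn5 and 3307, 3098 and 3132 in ada2b-c, against 596, 407 and 429.9 in Col-0. The order of the groups was that of PLDBETA2.

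The remaining members among the first 12 followed one order of means, with ada2a and spc lowest and Col-0 and gcn5 between them and the lines that carry ada2b-c. AT4G13650, a PPR protein, had 30.1, 43.8 and 22.8 in ada2a and 19.8, 18.2 and 21.9 in spc, 169.5, 211 and 178 in ada2b-cada2a and 130.4, 170.3 and 168 in ada2b-cspc, 157, 90.02 and 67.1 in gcn5 and 211, 196 and 223 in ada2b-c, against 180.3, 81.04 and 111 in Col-0. AT5G37410, of a family of unknown function, had 17.5, 4.22 and 28.4 in ada2a and 22.9, 4.34 and 11.2 in spc, 134, 214 and 109.9 in ada2b-cada2a and 115, 119.9 and 75.3 in ada2b-cspc, 91.2, 47.9 and 34.7 in gcn5 and 146, 130.0 and 111 in ada2b-c, against 68.3, 58.9 and 62.1 in Col-0. Neither gene overlapped Col-0 in ada2a or spc. AT5G06810, of the transcription termination factor family, had 54.4, 37.2 and 23.1 in ada2a and 78.5, 13.2 and 33.5 in spc, 227, 278 and 250.1 in ada2b-cada2a and 199.6, 254 and 218 in ada2b-cspc, 221, 137 and 132 in gcn5 and 352, 331 and 353 in ada2b-c, against 181, 105 and 169 in Col-0. AT5G05570, a WD-40 repeat protein, had 101, 80.4 and 65.2 in ada2a and 126, 32.8 and 78.6 in spc, 1026, 1273 and 1114 in ada2b-cada2a and 1020.0, 1073 and 1183 in ada2b-cspc, 643, 519 and 158 in gcn5 and 1619.7, 1490.0 and 1496 in ada2b-c, against 397, 302 and 178 in Col-0. Replicate 3 of gcn5 lay below Col-0 for this gene and the other gcn5 libraries above it. AT1G06710, a TPR-like protein, had 30.5, 2.71 and 20.3 in ada2a and 42.3, 7.82 and 10.4 in spc, 211, 227 and 242 in ada2b-cada2a and 271, 207 and 314 in ada2b-cspc, 101, 78.3 and 42.3 in gcn5 and 482, 473 and 457 in ada2b-c, against 85.4, 85.2 and 50.05 in Col-0. Replicate 2 of ada2a was far below the other ada2a libraries of this gene, and all ada2a and spc libraries were below Col-0.

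**Figure D3:**
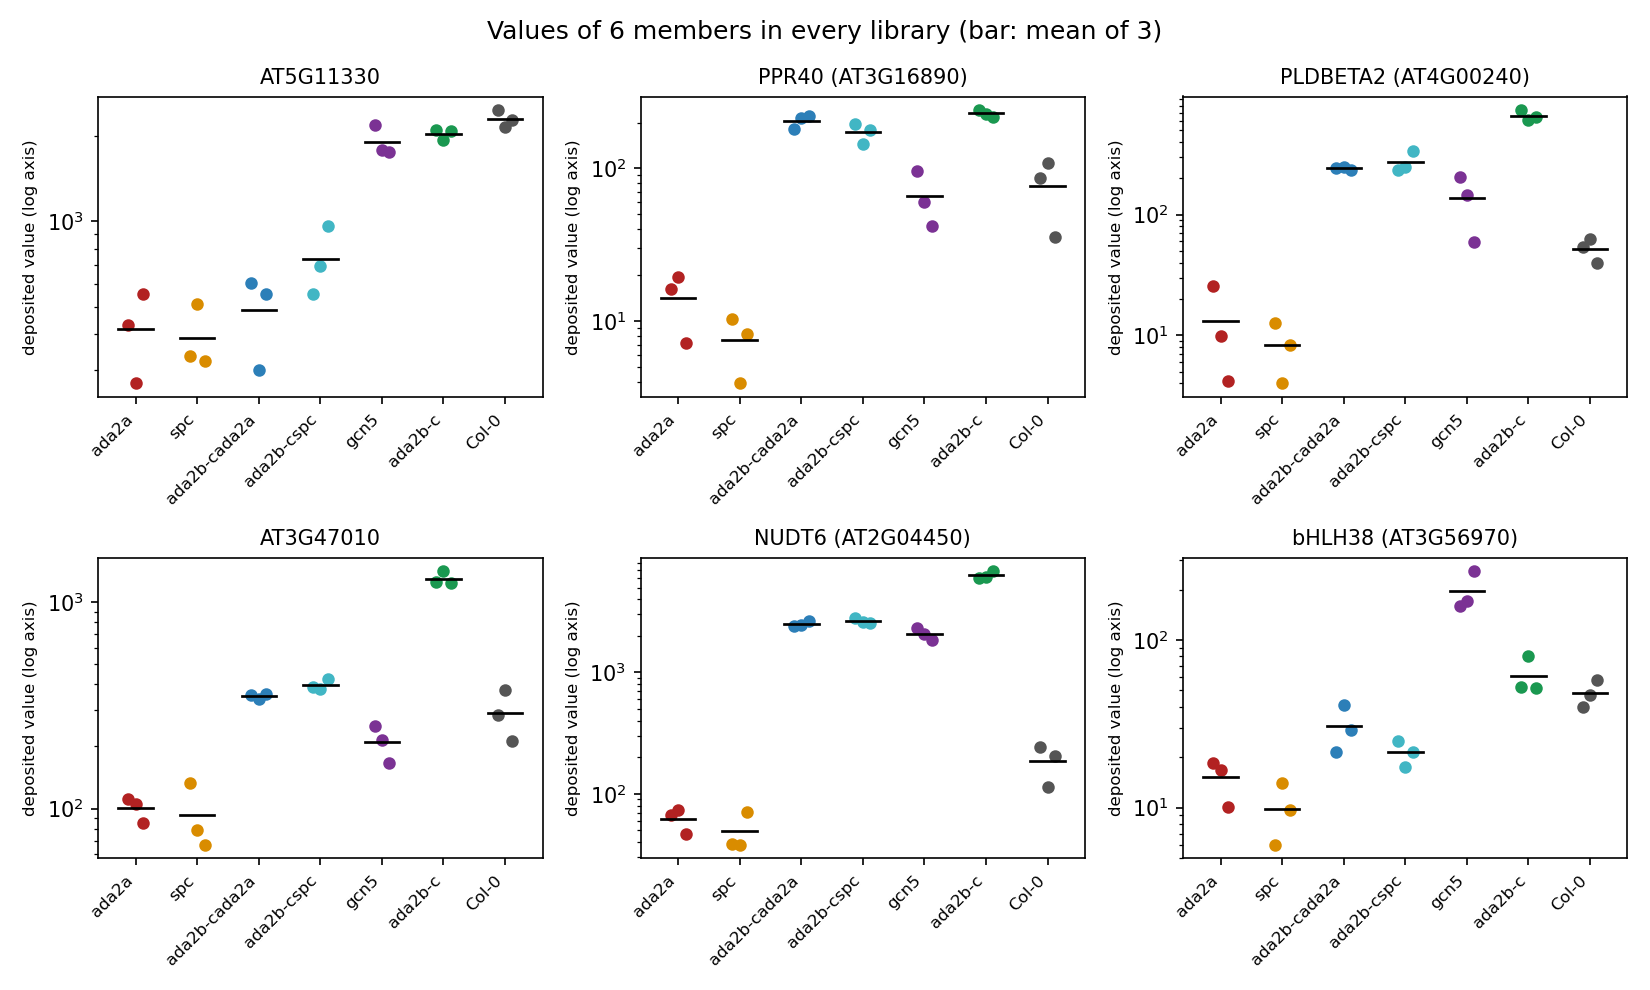
Deposited values of AT5G11330, PPR40, PLDBETA2, AT3G47010, NUDT6 and bHLH38 in every library on a log axis, with a bar at the mean of 3 for each genotype. AT5G11330 stays low in both double mutants (means 487 and 737, against 2294 in Col-0), while NUDT6 reaches 2504 and 2652 in them, against 187 in Col-0.

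The boundary of the set was gradual. The last 3 members were AT1G52630, an O-fucosyltransferase family protein, CPK26, a calcium-dependent protein kinase, and ATOBGM, an Obg-type GTPase, and the next 3 genes in rank were AT4G39530, AT4G27340 and ASG7. AT1G52630 had 184, 105 and 59.8 in ada2a and 148, 98.6 and 149 in spc, 355, 330.5 and 335 in ada2b-cada2a and 295, 303 and 339.8 in ada2b-cspc, 348, 207 and 238 in gcn5 and 412, 398 and 457 in ada2b-c, against 407, 305 and 331 in Col-0. CPK26 had 20.6, 8.17 and 4.04 in ada2a and 11.3, 3.63 and 0.307 in spc, 287, 301 and 255 in ada2b-cada2a and 351, 295 and 528 in ada2b-cspc, 66.7, 109.7 and 34.8 in gcn5 and 489.6, 413 and 407 in ada2b-c, against 36.2, 34.5 and 20.1 in Col-0. One ada2a library of CPK26, at 20.6, overlapped Col-0, whose mean of 30.3 was just above the minimum. ATOBGM had 46.6, 27.8 and 4.63 in ada2a and 72.9, 36.6 and 32.3 in spc, 426, 522 and 425 in ada2b-cada2a and 419.8, 429.9 and 466 in ada2b-cspc, 321, 188 and 110.4 in gcn5 and 324, 355 and 352 in ada2b-c, against 157, 119 and 101 in Col-0. The weaker L of these 3 was -1.39 each at 2 decimals.

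Just outside the set, AT4G39530 had 34.1, 4.28 and 16.1 in ada2a and 30.2, 17.3 and 34.1 in spc, 208, 216 and 195 in ada2b-cada2a and 182, 174 and 174 in ada2b-cspc, 171, 85.1 and 96.2 in gcn5 and 131, 146 and 120.0 in ada2b-c, against 80.1, 82.9 and 55.5 in Col-0. AT4G27340 had 90.1, 135 and 74.8 in ada2a and 121, 61.1 and 58.5 in spc, 258, 320.0 and 333 in ada2b-cada2a and 316, 300.3 and 355 in ada2b-cspc, 260.4, 221 and 96.3 in gcn5 and 596, 617 and 623 in ada2b-c, against 312, 257 and 219 in Col-0. ASG7 had 80.6, 68.9 and 23.7 in ada2a and 87.7, 18 and 32.3 in spc, 934, 1180.3 and 990.2 in ada2b-cada2a and 1022, 945 and 1027 in ada2b-cspc, 409, 245 and 57.5 in gcn5 and 1138, 1225 and 1228 in ada2b-c, against 186, 163 and 109 in Col-0. Their weaker L was -1.39, -1.39 and -1.38, and in all 3 the ada2a and spc libraries lay below those of Col-0.

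Proteins with pentatricopeptide or related repeats were the most common kind among the members. PPR proteins are encoded in the nucleus and bind RNA in mitochondria and chloroplasts, where they take part in editing, splicing and stabilising organelle transcripts, and many PPR genes lack introns. Descriptions in RefSeq named PPR for 17 members and TPR-like for 14, together 31 of 150 (20.7%), against 326 of 9455 eligible genes (3.45%) and 514 of 23290 genes tested (2.21%). This group was picked after the members had been seen, so the shares are a description. MEF3, which edits mitochondrial RNA, had L of -2.28 in ada2a and -1.52 in spc. DOT4, which edits chloroplast RNA, had L of -1.95 and -1.51 in the same order, and EMB2217 had -1.44 and -1.63.

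Low values were also common among PPR genes outside the set. Of the 240 PPR genes tested that are not members, 104 (43.3%) had L at or below -1 in ada2a and 106 (44.2%) in spc, against 10.8% and 15.6% of all 23140 tested genes outside the set. Their median L was -0.92 in ada2a, -0.88 in spc, 0.08 in gcn5 and 0.60 in ada2b-c. After the correction for length and GC content the medians were -0.55 in ada2a and -0.40 in spc, and 15.8% and 16.3% of these PPR genes stood at or below -1, against 8.96% and 10.2% of the tested genes outside the set. Of the 31 repeat-protein members, 19 had a single exon, against 11 of the other 119. Near-identical PPR genes can share reads, so single values such as that of AT1G62914 are uncertain.

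**Figure D4:**
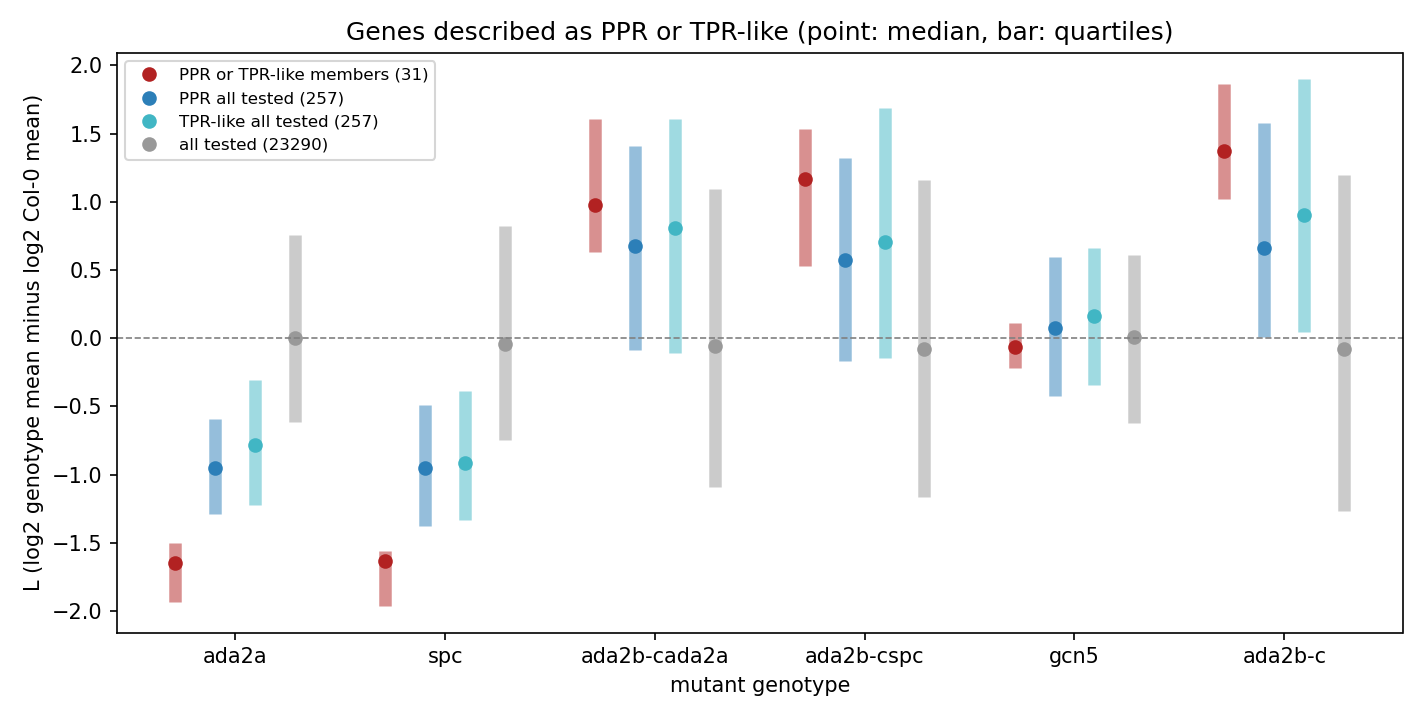
L in each mutant for the 31 PPR or TPR-like members, all 257 PPR genes, all 257 TPR-like genes and all 23290 genes tested; points are medians and bars quartiles over genes. In ada2a and spc the PPR and TPR-like genes as a whole have medians between -0.95 and -0.78, below those of all genes, which are near 0.

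By the keywords of their descriptions the other members were spread over many functions. Transcription factors made up 8 members (5.33%, against 4.44% of eligible genes), protein turnover 7 (4.67%, against 5.70%), kinases 6 (4.0%, against 6.95%) and transport 5 (3.33%, against 3.45%). All 150 members were protein-coding, with 36, 21, 23, 26 and 44 on chromosomes 1 to 5. Within 20 kb of each other lay 7 pairs of members, among them MEF3 and AT1G06143 (37 bp apart), SDG29, a histone methyltransferase, and ORG1 (4640 bp), and PLDBETA2 and AT4G00290 (11845 bp).

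No member was on the 8 lists looked at, which hold genes of GCN5 complexes, chromatin remodelling, histone methylation, small RNA and DNA methylation, RNA polymerases and Mediator, RNA splicing and decay, DNA repair, and signalling. Symbols were matched by name alone, and a symbol can belong to an unrelated gene, as CRC does below. The matches of SMG1 to AT5G47960 (L of 1.66 in ada2a and 1.91 in spc) and of SMC3 to AT5G48600 are uncertain in this way. Of 112 genes tested on these lists, 15 (13.4%) passed as lower in ada2a against Col-0 and 3 as higher, against 19.9% and 19.8% of all genes tested. With the length and GC correction 11 were lower and 22 higher (17.2% and 15.9% of all genes). The other alternatives without a library left out gave 3 to 36 lower (8.5% to 30.7% of all genes). In spc, 44 (39.3%) passed as lower and 2 as higher, against 25.7% and 21.7% of all genes tested. The correction gave 17 lower and 17 higher there (19.1% and 18.1% of all genes), and the fit of the groups alone 10 lower (9.03%). Leaving out a library gave 6 to 20 lower in ada2a (9.63% to 22.3% of all genes), the lowest without Col-0 replicate 1. In spc it gave 16 to 59 (15.4% to 29.9%), the lowest without spc replicate 2. In each double mutant 103 of the 112 (92.0%) passed as higher than Col-0, against 30.4% and 31.4% of all genes tested, and with the correction 53 (47.3%) in ada2b-cada2a and 58 (51.8%) in ada2b-cspc, against 31.6% and 32.7%.

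Chloroplast and mitochondrial housekeeping genes among the members included FTSH8 and ftsh9, membrane proteases of chloroplasts, with L of -1.56 and -1.44 in ada2a and of -1.87 and -1.57 in spc. EMB25, a chloroplast RNA helicase also known as ISE2, had -1.41 in ada2a and -1.74 in spc. ABO6, a mitochondrial RNA helicase, had -1.42 and -2.16 in that order. EMB2083, an AAA-type ATPase, had -1.43 and -2.01.

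Signalling members included EIN4, an ethylene receptor, with 149 ± 30.7 in ada2a and 130.0 ± 50.3 in spc, against 395 ± 121 in Col-0 (SD, n = 3 each). VPS15, part of the lipid kinase complex of endosomes and autophagy, had 128 ± 31.1 in ada2a and 137 ± 19.2 in spc, against 372 ± 103 in Col-0. For both genes all ada2a and spc libraries were below all Col-0 libraries. PFK7, a phosphofructokinase of glycolysis, had L of -1.43 in ada2a and -1.42 in spc. MGT2, a magnesium transporter, had -1.46 and -1.59, and ABCB27, an ABC transporter, had -1.5 and -1.61. AR791, described as actin binding, reached -1.60 and -2.65.

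Other named members have a range of roles. SRD2, needed for transcription of small nuclear RNAs, had L of -1.76 in ada2a and -1.77 in spc. AT-HSFA5, a heat stress factor, had -1.52 and -1.52, and EMB1789, a CCCH zinc finger protein, had -1.54 and -1.78. UCH1, a ubiquitin C-terminal hydrolase, had -1.49 and -1.47, and RKP, an E3 ubiquitin ligase, had -1.40 and -1.45.

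The bHLH38 and bHLH39 genes were among 11 members with L of at least 1 in gcn5, where the highest L was 3.47, in another member. They encode related transcription factors that act with FIT in the iron deficiency response, and lie 1144 bp apart on chromosome 3. bHLH38 had 18.6, 16.8 and 10.1 in ada2a and 6.005, 13.9 and 9.68 in spc, 21.4, 41.1 and 28.98 in ada2b-cada2a and 25.03, 17.6 and 21.6 in ada2b-cspc, 161, 171 and 257 in gcn5 and 52.4, 79.8 and 51.9 in ada2b-c, against 39.6, 47.3 and 57.5 in Col-0. bHLH39 had 0.459, 40.3 and 13.2 in ada2a and 9.48, 20.05 and 9.95 in spc, 29.2, 46.8 and 35.8 in ada2b-cada2a and 20.1, 24.4 and 19.98 in ada2b-cspc, 218, 233 and 359 in gcn5 and 72.4, 66.7 and 103 in ada2b-c, against 32.2, 67.8 and 54.3 in Col-0. All gcn5 libraries of both genes lay above all others, and 1 ada2a library of bHLH39 overlapped Col-0. The CACGTG in the bHLH38 promoter shown above is a G-box, which 8 of 150 members (5.33%) and 8.83% of eligible genes carried. bHLH38 is 1 of 50 members that overlap an annotated gene on the opposite strand, and since strandedness is not given, reads of the 2 genes cannot be told apart. The same limit holds for AT1G06710, AT5G28220, VPS15 and CPK26, among others. AT1G23180 and AT3G47010 overlap a gene on the same strand, and 55 members overlap another annotated gene on either strand.

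The double mutants took no part in the rule, and set against ada2b-c they ask what the members do when ada2a or spc is lost as well. Members were on balance lower in both. In ada2b-cada2a the median change was -0.38 on the log2 scale, with 128 of 150 below 0, against a median of -0.15 for eligible genes and 0.00 for all genes tested. In ada2b-cspc it was -0.38, with 137 of 150 below 0, against -0.12 for eligible genes and 0.00 for all. The ada2b-c mean entered the rule only through its lower limit. In limma, 14 members passed as lower in ada2b-cada2a (6.2% of all genes tested) and 0 as higher (9.45%). In ada2b-cspc 6 members passed as lower (3.29%) and 0 as higher (5.88%). At an unadjusted p under 0.05, 32 members were lower and 0 higher in ada2b-cada2a (12.3% and 16.0% of all genes), and 27 were lower and 1 higher in ada2b-cspc (8.78% and 12.8%).

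These counts depend on how the spread is estimated, since one spread was shared by all genotypes. The median SD of log2 levels of the members was 0.61 in ada2a, 0.71 in spc, 0.17 in ada2b-cada2a, 0.14 in ada2b-cspc, 0.66 in gcn5, 0.09 in ada2b-c and 0.36 in Col-0. Fitted on the groups compared alone, 77 members passed as lower and 4 as higher in ada2b-cada2a (18.3% and 19.7% of all genes), and 80 and 3 in ada2b-cspc (15.9% and 15.7%). Every ada2b-cada2a library lay below every ada2b-c library for 91 members (25.5% of all genes) and above for 7 (26.7%). Every ada2b-cspc library lay below ada2b-c for 99 members (24.2%) and above for 5 (23.5%). With the length and GC correction the counts were 27 lower and 1 higher in ada2b-cada2a (11.3% and 12.3% of all genes) and 16 and 0 in ada2b-cspc (7.42% and 8.01%). The median change of the members was then -0.24 in ada2b-cada2a and -0.32 in ada2b-cspc, against -0.02 and -0.04 for all genes. Leaving out any one library of the groups compared gave 5 to 8 members lower in ada2b-cada2a (3.4% to 4.29% of all genes) and 3 to 6 in ada2b-cspc (1.78% to 2.49%). The lowest were 5 without ada2b-c replicate 1 for ada2b-cada2a, and 3 without ada2b-c replicate 2 or ada2b-cspc replicate 2 for ada2b-cspc.

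The members that passed as lower than ada2b-c in both double mutants were 5 (2.71% of all genes): AT5G11330, AT3G47010, NUDT6, AT3G06440 and AT5G28220. AT3G47010, a glycosyl hydrolase family protein, had 355, 339 and 359 in ada2b-cada2a and 389, 380.0 and 427 in ada2b-cspc, against 1249, 1411 and 1245 in ada2b-c. It fell by 1.89 ± 0.25 in ada2b-cada2a (limma, adjusted p = 3.37e-05) and by 1.70 ± 0.25 in ada2b-cspc (adjusted p = 0.000141), and its double mutant libraries overlapped or lay just above those of Col-0, which had 283, 374 and 212. NUDT6, a nudix hydrolase that rises in defence responses, had 2427, 2438 and 2646 in ada2b-cada2a and 2794, 2588 and 2575 in ada2b-cspc, against 5992, 6135 and 6787 in ada2b-c. NUDT6 fell by 1.33 ± 0.25 in ada2b-cada2a (adjusted p = 0.00121) and by 1.25 ± 0.25 in ada2b-cspc (adjusted p = 0.00321), with no overlap of libraries.

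AT3G06440, a galactosyltransferase family protein, had 738, 945 and 784 in ada2b-cada2a and 777, 812 and 797 in ada2b-cspc, against 1532, 1503 and 1491 in ada2b-c and 674, 634 and 536 in Col-0. It changed by -0.88 ± 0.26 in ada2b-cada2a and by -0.92 ± 0.26 in ada2b-cspc relative to ada2b-c (limma, adjusted p = 0.0252 and 0.0287). AT5G28220, described as a protein prenylyltransferase, had 350.3, 287 and 347 in ada2b-cada2a and 356, 353 and 300.1 in ada2b-cspc, against 582, 619.7 and 606 in ada2b-c and 298, 197 and 238 in Col-0. For both genes every double mutant library lay below every ada2b-c library.

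Of members that passed in one double mutant and not in the other, bHLH38 differed from ada2b-c by -1.46 ± 0.37 in ada2b-cspc (adjusted p = 0.015) and by -1.0 ± 0.37 in ada2b-cada2a (adjusted p = 0.0728). Its call in ada2b-cspc was lost without ada2b-c replicate 2 or ada2b-cspc replicate 2 (adjusted p = 0.0869 and 0.0758). AT4G10550, a subtilase family protein, had 159.8, 105 and 154 in ada2b-cada2a, 180.2, 217 and 194 in ada2b-cspc and 431, 467 and 392 in ada2b-c. It fell by 1.64 ± 0.48 in ada2b-cada2a (adjusted p = 0.0236), a call lost without any one of the ada2b-c replicates and without ada2b-cada2a replicate 2 or 3. LACS7 fell by 0.89 ± 0.22 in ada2b-cada2a (adjusted p = 0.00953) and differed by -0.69 ± 0.22 in ada2b-cspc (adjusted p = 0.0578).

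**Figure D5:**
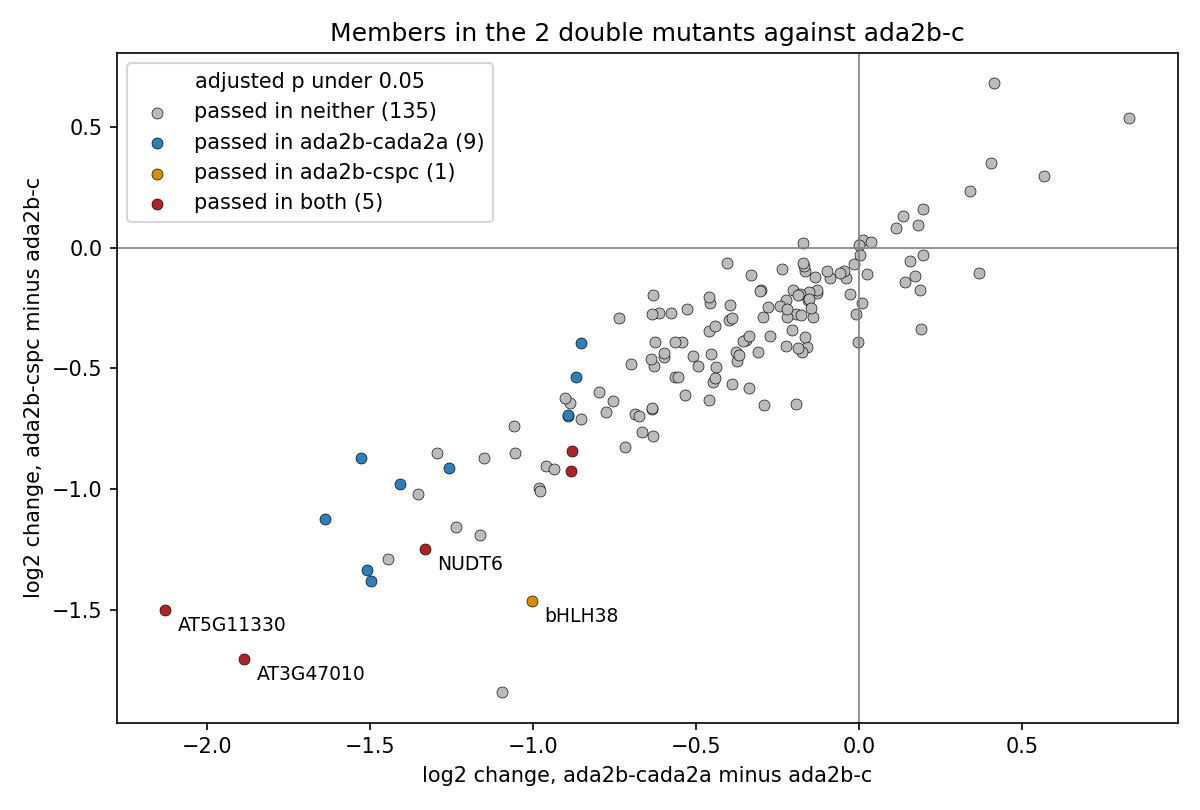
Log2 change of each member in ada2b-cada2a (x axis) and ada2b-cspc (y axis) relative to ada2b-c, which both share; colours give which comparison passed in limma at an adjusted p under 0.05. Most points lie below 0 on both axes, and AT5G11330 and AT3G47010 lie farthest to the lower left.

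Set directly against each other, the double mutants gave no member that passed the test. This is the one comparison that shares no library with the rule. The median difference, ada2b-cada2a minus ada2b-cspc, was 0.00, with a range from -0.66 to 0.75. In limma 0 members passed in either direction (0.198% of all genes passed as higher and 0.271% as lower), and at an unadjusted p under 0.05 there were 0 higher and 2 lower (2.58% and 2.68% of all genes). Fitted on the groups compared alone, 0 passed as higher and 0 as lower (0.21% and 0.279%). Libraries did not overlap for 13 members lower (8.44% of all genes) and 9 higher (12.5%) in ada2b-cada2a. For AT5G11330 the difference was -0.63 ± 0.28 (adjusted p = 0.85), and for bHLH38 0.46 ± 0.37 (adjusted p = 1).

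Against Col-0, most members stood higher in the double mutants, as did most eligible genes. The median L of the members was 0.94 in ada2b-cada2a and 1.04 in ada2b-cspc, against 0.86 and 0.88 for eligible genes. With the length and GC correction it was 0.37 and 0.25, against 0.54 and 0.56 for eligible genes. Since Col-0 also served to choose the members, these changes share that mean with the rule. In limma 77 members passed as higher and 1 as lower in ada2b-cada2a (30.4% and 32.1% of all genes), and 87 as higher and 2 as lower in ada2b-cspc (31.4% and 33.3%). Of the members 76 passed as higher in both (28.6% of all genes). At an unadjusted p under 0.05 the numbers were 86 and 1 in ada2b-cada2a (32.0% and 34.1%) and 90 and 2 in ada2b-cspc (32.8% and 34.9%). In the fits of the groups compared alone they were 105 and 2 (32.5% and 34.2%), and 107 and 6 (33.6% and 35.9%). Every ada2b-cada2a library lay above Col-0 for 113 members and below it for 4 (35.1% and 38.6%), and every ada2b-cspc library for 115 and 6 (36.1% and 40.0%). NUDT6 rose by 3.81 ± 0.25 in ada2b-cada2a and by 3.89 ± 0.25 in ada2b-cspc (adjusted p = 1.99e-10 and 1.30e-10). CPK26 rose by 3.21 ± 0.61 and 3.65 ± 0.61 in the same comparisons (adjusted p = 0.000132 and 3.01e-05).

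VPS15 had 2884, 4138 and 3098 in ada2b-cada2a and 3669, 3548 and 4084 in ada2b-cspc, against 481, 359 and 277 in Col-0. AT5G55100, a SWAP domain protein, had 3025, 2926 and 3224 in ada2b-cada2a and 3455, 3238 and 5357 in ada2b-cspc, against 484, 379 and 239.5 in Col-0. Every double mutant library of both genes lay above every Col-0 library. VPS15 rose by 3.19 ± 0.34 in ada2b-cada2a (adjusted p = 1.19e-07), and AT5G55100 by 3.47 ± 0.45 in ada2b-cspc (adjusted p = 1.49e-06). The VPS15 call was lost under the length and GC correction, at 0.25 (adjusted p = 0.124). That correction left 49 members higher and 18 lower in ada2b-cada2a (31.6% and 26.8% of all genes), and 47 higher and 21 lower in ada2b-cspc (32.7% and 28.3%). The share of members called higher was then near that of all genes. Without Col-0 replicate 3 there were 51 higher in ada2b-cada2a (27% of all genes). The members lower than Col-0 were AT5G11330 in both double mutants, which fell by 2.30 ± 0.28 in ada2b-cada2a (adjusted p = 6.02e-07) and by 1.67 ± 0.28 in ada2b-cspc (adjusted p = 2.56e-05), and bHLH38 in ada2b-cspc, by 1.13 ± 0.37 (adjusted p = 0.0116). bHLH38 differed from Col-0 by 0.25 in ada2b-cspc under the length and GC correction.

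The targeted genes and tissue markers were looked at once for all libraries. ADA2A averaged 32.0 ± 22.1 in ada2a and 3.48 ± 3.36 in ada2b-cada2a, against 66.9 ± 21.3 in Col-0 (SD, n = 3 each). GCN5 averaged 275 ± 14.9 in gcn5, against 372 ± 51.0 in Col-0, and ADA2B 583 ± 27.4 in ada2b-c, against 494 ± 213 in Col-0. The level of ADA2B thus gave no check of the ada2b-c label, and SPC was not matched to a gene here. ADA2B averaged 215 ± 51.9 in ada2a (L -1.19) and 127 ± 73.9 in spc (L -1.95). It averaged 540 ± 274 in gcn5 (L 0.13), and its L in ada2b-c was 0.24. ADA2B thus met the limits of the rule but did not rank among the members. In ada2b-cada2a and ada2b-cspc it averaged 323 ± 55.7 and 411 ± 62.4. Whether the level of ADA2B bears on the members was not tested. In ada2b-c itself ADA2A averaged 816 ± 34.2, against 66.9 ± 21.3 in Col-0. Leaf markers, 8 in all and none with a mean under 1, summed to 3055759 to 4760001 in ada2a libraries, 2496105 to 2787420.1 in spc and 331689 to 368769 in ada2b-c, against 2709270 to 3147942 in Col-0. Markers of dividing cells, 4 in all and none under 1, summed to 3428 to 5040 in ada2a, 3551 to 5842 in spc and 1155 to 1403 in ada2b-c, against 2936 to 3080 in Col-0. The histone gene HIS4 made up most of this sum, with L of 0.85 in ada2a and 0.94 in spc. KNOLLE had -0.90 and -0.34, CYCB1;1 -0.43 and 0.03, and CDKB2;1 0.13 and 0.01 in the same order. The 4 guard cell markers, none under 1, summed to 415 to 499.9 in ada2a, 404 to 446 in spc and 573 to 713 in ada2b-c, against 591 to 706 in Col-0. Among them SLAC1 had L of -1.89 in ada2a and -2.03 in spc. The 2 phloem markers, none under 1, summed to 2887 to 4368 in ada2a, 1754 to 4637 in spc and 3524 to 4558 in ada2b-c, against 3540 to 5963 in Col-0. The 5 genes looked up as seed markers summed to 25.7 to 93.7 in ada2a and 40.5 to 70.8 in spc libraries. They summed to 0 in ada2b-c and to 14.0 to 24.3 in Col-0. Of them, 4 had a mean under 1 in ada2a, spc and Col-0, and 5 in ada2b-c. Nearly all of the sum was 1 gene, since the symbol CRC was matched to AT1G69180, which is CRABS CLAW, a carpel gene. It averaged 55.3 in ada2a, 49.8 in spc and 20.6 in Col-0, so the sum gives no level of seed. The 1 anther and pollen marker found had 171 to 344 in ada2a, 62.7 to 405 in spc and 0 in ada2b-c, against 196 to 366 in Col-0. The 4 flower markers found summed to 1507 to 1633 in ada2a libraries, 1690 to 1981 in spc and 52.8 to 67.9 in ada2b-c, against 640 to 856 in Col-0. All 4 had a mean of at least 1 in ada2a, spc and Col-0, and 1 was under 1 in ada2b-c. The 8 root markers summed to 510 to 944 in ada2a libraries and 443 to 1140 in spc. They summed to 5415 to 5730 in ada2b-c, against 873 to 1511 in Col-0. Of these markers, 2 had a mean under 1 in ada2a, spc and Col-0, and 4 in ada2b-c. PYK10 made up most of the sum, with means of 4659 in ada2b-c and 699 in Col-0. SCR (872 against 426) and PHT1;1 (35.4 against 4.05) were also higher in ada2b-c. NRT2.1 (16.6 against 26.1), IRT1 (0 against 12.4), COBL9 (0 against 2.17) and EXPA7 (0 against 0.728) were lower there, and RHD6 was 0 in both. In ada2b-cada2a and ada2b-cspc, leaf markers summed to 507742 to 682042 and 435733 to 530725. Flower markers summed to 152 to 183 and 105 to 137 there, and root markers to 9157 to 12134 and 7660 to 10251. Not every marker followed its sum: the leaf marker RCA averaged 32216 and 33126, against 37905 in ada2b-c, and SCR 761 and 787, against 872. In gcn5 leaf, flower and root markers summed to 936369 to 1150958, 246 to 403 and 1965 to 3769. The part of plant tissue and of transcript length in the members' levels was not tested. In RNA taken from many cells together, fewer cells of a type and less RNA per cell cannot be told apart.

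The genes outside the set whose 7 genotype means followed the median profile of the members most closely were AT1G80910, a CCZ1-like vacuolar fusion protein (r = 0.9997), AT4G22285 (0.9989), AT1G77420 (0.9989), GLX2-1 (0.9983) and AT3G18310 (0.9983). AT1G80910 averaged 162 in ada2a, 145 in spc, 795 in ada2b-cada2a, 807 in ada2b-cspc, 437 in gcn5 and 1015 in ada2b-c, against 420 in Col-0. These correlations are over 7 genotype means that share all libraries and are a description.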

How the data were processed

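The authors deposited 1 table of signal values for 32548 genes in 21 libraries; the values are not whole numbers, and no source used here states how they were scaled. Per the submitters' processing notes, bcl2fastq, HISAT2 and edgeR were used with the TAIR10 genome. The sources used here do not name the counter, annotation, strandedness or tool versions. Log2(value + 1) was fitted with limma 3.58.1 (trend) in R 4.3.3, with 1 mean per genotype over all 21 libraries, for 23290 genes with a mean of at least 1. All 150 members passed this filter. P-values were adjusted by the Benjamini-Hochberg method over all genes tested, and adjusted p under 0.05 was called. Comparisons were each double mutant against ada2b-c and Col-0, and the double mutants against each other; for the gene lists, ada2a and spc were also compared with Col-0 in the same fit. The fit was tested on simulated data.

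The members and lists were chosen with earlier results of these data known. Genes named are the first 12 and last 3 members, the 3 that follow, up to 3 members with the largest changes in each direction of a comparison whose libraries do not overlap, up to 3 members with a symbol by rank in each class of description, and the 5 genes closest in profile. Others were named after their values were seen. All 32548 gene IDs matched RefSeq TAIR10.1, and 114 of 133 listed symbols were matched, to 112 different tested genes. Alternatives were no filter, only the groups compared, a smaller pseudocount (0.1), a block for replicate number, equal column totals, a spline correction for length and GC content (5 degrees of freedom each, fitted to 18559 genes), each library left out, and, chosen after seeing the data, the 4 libraries of lowest length slope left out. Same-numbered libraries correlated at -0.087 to 0.088 in the residuals, so numbers were not taken as pairs.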

Additional observations from a re-analysis of the deposited data

Results flagged for a closer look

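In 12 cases a member stood below Col-0 in every library of a single mutant and above ada2b-c in every library of the matching double mutant. Of all genes tested, 26.7% lay above ada2b-c in every ada2b-cada2a library and 23.5% in every ada2b-cspc library. Below Col-0 in every library lay 23.8% in ada2a and 26.5% in spc. The share of all genes that met both conditions was not computed. The direction in the single mutants was set by the rule that chose the members, and the difference between the changes was not tested. None of the 12 passed in limma against ada2b-c (adjusted p from 0.181 to 0.946). In ada2b-cada2a there were 7: BAM2, a chloroplast beta-amylase, was higher than in ada2b-c by 0.83 on the log2 scale, DOT4 by 0.57, BRL1, a brassinosteroid receptor, by 0.41, ATOBGM by 0.41, DRT101 by 0.37, EMB506 by 0.20 and AT1G48040 by 0.11. In ada2b-cspc there were 5: BRL1 was higher by 0.68, BAM2 by 0.53, ATOBGM by 0.35, DOT4 by 0.29 and AT5G17900 by 0.13. DOT4, BRL1, BAM2 and ATOBGM were the 4 found in both.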

How the results depend on the processing

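Depth is unknown, and p-values rest on 3 libraries a group. Shares of all genes called stand in brackets. Members lower than ada2b-c were 14 in ada2b-cada2a (6.2%) and 6 in ada2b-cspc (3.29%). They were 77 (18.3%) and 80 (15.9%) in the fit of only the groups compared, 27 (11.3%) and 16 (7.42%) with the length and GC correction, and 38 (12.6%) and 24 (7.39%) without the 4 libraries of lowest length slope. Leaving out each library gave 5 to 8 (3.4% to 4.29%) and 3 to 6 (1.78% to 2.49%). Numbers higher were 0 and 0; they were 4 (19.7%) and 3 (15.7%) with only the groups compared, 1 (12.3%) and 0 (8.01%) with the correction, and 1 (15.6%) and 1 (10.5%) without the 4 libraries. Against Col-0, 77 (30.4%) and 87 (31.4%) were higher. Equal column totals gave 112 (37.7%) and 105 (39.2%), the groups alone 105 (32.5%) and 107 (33.6%), and the correction 49 (31.6%) and 47 (32.7%). With each library left out there were 51 to 79 (27% to 29.2%) and 61 to 83 (28.1% to 30.3%). Numbers lower than Col-0 were 1 (32.1%) and 2 (33.3%); they were 2 (34.2%) and 6 (35.9%) with only the groups compared and 18 (26.8%) and 21 (28.3%) with the correction, and equal column totals gave 1 (22.9%) in ada2b-cspc. Equal column totals moved the median change of all genes against Col-0, to 0.33 for ada2b-cada2a and to 0.37 for ada2b-cspc. The rule itself was met by 77 members with the correction and by 92 to 150 when libraries were left out in turn, the lowest without gcn5 replicate 1. For bHLH38, ada2b-cspc minus Col-0 changed sign under the correction, at 0.25 (main value -1.13), and did not pass with equal column totals, at -0.66. With the replicate block, 19 (7.16%) and 8 (3.8%) members were lower than ada2b-c and 84 (31.3%) and 90 (32.1%) higher than Col-0. The cause of these shifts was not tested. No member passed between the double mutants under any alternative run.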
